A study of Mus musculus with 8 samples.

Results

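N6-methyladenosine (m6A) is laid down on nascent mRNA by a multi-protein methyltransferase. METTL3 is its catalytic subunit and METTL14 holds the RNA, WTAP and ZC3H13 keep the complex in the nucleus, RBM15 and RBM15B bring it to its targets, and CBLL1 (HAKAI) is a further subunit. ALKBH5 and FTO are demethylases that remove the mark, and YTHDF3 is a cytoplasmic protein that binds m6A through its YTH domain. The mRNAs of these writers and erasers can themselves be bound by YTHDF3, and this was examined for 9 genes, Mettl3, Mettl14, Wtap, Zc3h13, Rbm15, Rbm15b, Cbll1, Alkbh5 and Fto. The members were all peaks that the deposited annotation named for 1 of these 9 genes. They came to 57 peaks in 27 regions, out of 39979 regions in the series, where a region is a set of peaks that overlapped between libraries.

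YTHDF3 RNA immunoprecipitation followed by sequencing (RIP-seq) was performed in wild type mouse embryonic fibroblasts (MEFs) of the C57BL/6 strain, taken from embryos 13.5 days post coitum and used at passages 5 to 6. MEFs are primary cells grown out of the embryo body, and their culture is a mixture of mesenchymal cells. MEFs in normal medium were compared with MEFs kept for 2 h in nutrient-deprived medium, called starved here, with 2 replicates of each condition. Every library was made from polyadenylated RNA of unmodified cells, the immunoprecipitation (IP) used a YTHDF3 antibody, and each of the 4 IP libraries was set against an input library. The labels do not say whether replicates were separate cultures, so that p-values measure the spread between these libraries, which may be technical. Over the 6531 regions called in all 4 libraries, the normal IP libraries held 6930058 and 8818659 reads and the starved ones, which were the deeper, 12059939 and 11645382, while inputs held 1874978 to 3047643. Of 14 fibroblast marker genes, 11 had a peak, but only 2 had a region called in all 4 libraries. Col1a1, Postn and Vim had no peak, and none of 4 epithelial markers had one. Of the blood markers Ptprc, Cd68 and Adgre1 had no peak and Csf1r, the neighbour of Pdgfrb on its chromosome, had one, and of the endothelial markers Pecam1 and Cdh5 had none and Kdr had one. Csf1r and Kdr each had a region called in all 4 libraries. In each library the peaks of Csf1r held 3560 to 5318 input reads, and those of Kdr only 0 to 5. A peak needs binding as well as expression, so these counts do not measure cell composition.

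YTHDF3-bound regions found in every library belonged to 3 of the 9 genes, the eraser Alkbh5 and the writer adaptors Rbm15 and Rbm15b. Only 7 of the 9 had a peak at all. Of the 8612 genes with any peak in the series, 2721 or 31.6% had a region called in all 4 libraries, against 3 of these 7. Over all 21924 annotated protein-coding genes, with or without a peak, 10.9% had such a region, against 3 of the 9. The m6A catalytic pair, Mettl3 and Mettl14, had no such region, nor did Cbll1 and Fto, and no peak was named for Wtap or Zc3h13. A peak was kept where its IP value was at least 2 times the input value with a p under 0.0001, so a gene with no peak may still be bound below that threshold, and its reads are not in the lists. Of the 27 regions, 8 were called in all 4 libraries, 2 in 2 libraries and 17 in a single library. Over the series, 16.3% of regions were called in all 4.

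**Figure D1:**
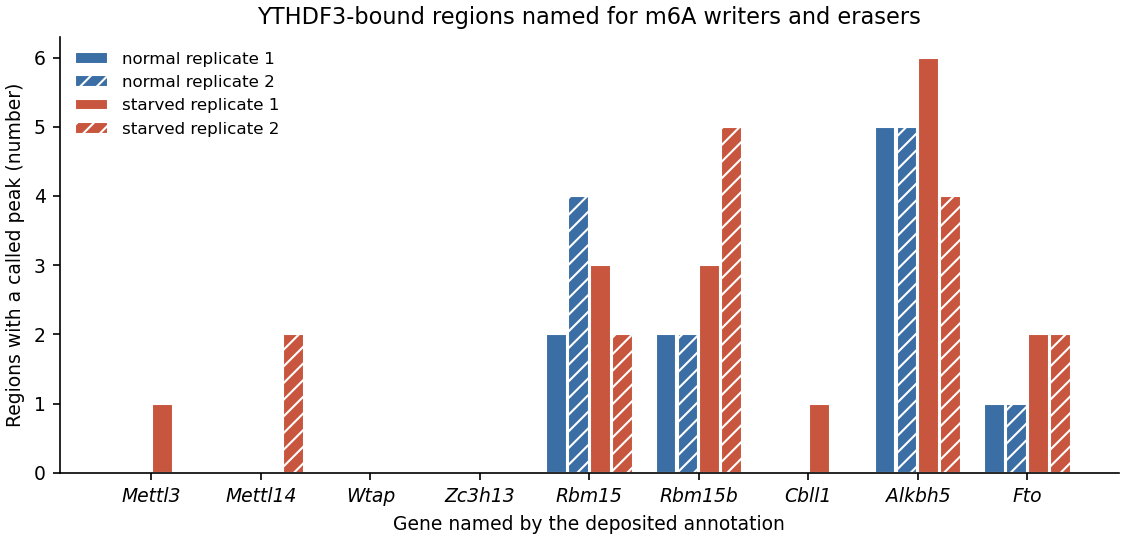
Number of regions with a called peak (vertical axis) for each of the 9 genes (horizontal axis), with 1 bar per library, blue for normal and red for starved, plain for replicate 1 and hatched for replicate 2. Alkbh5 had 4 to 6 regions in each library and Rbm15 and Rbm15b had 2 to 5, while Mettl3, Mettl14 and Cbll1 had regions in 1 starved library each and Wtap and Zc3h13 had none.

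The name that the annotation gave was not always that of the gene on which the peak lay. Of the 27 regions, 16 overlapped an exon of the named gene in GENCODE, 2 lay inside the gene off its exons, and 9 lay outside it. Among the 8 regions called in all 4 libraries, 6 lay on exons of Alkbh5, Rbm15 or Rbm15b. The other 2 did not. The region at chr11:60581551-60582330 (mm10), named Alkbh5, lay downstream of that gene in an intron of the long non-coding RNA gene Gm26837, and its sequence had 59 other copies in the genome at 95% identity or more, the longest 780 bp at 99.9%. Its reads can therefore not be assigned to this place with certainty. The region at chr9:106857851-106858800, named Rbm15b, lay on coding exons of the neighbouring gene Dcaf1, which encodes a substrate receptor of a ubiquitin ligase. Both regions named Mettl14 lay on exons of Sec24d, a coat protein gene, and no peak overlapped an exon of Mettl14, Wtap or Zc3h13, whatever its name. On the exons of Fto lay 7 peaks, 6 with its name and 1 that was named for the neighbouring gene Irx3 and is not counted among the members.

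The 6 exonic regions, each joining the overlapping peaks of the libraries, covered nearly the whole of the 3 mRNAs. Alkbh5 (chr11:60536381-60558512, plus strand) has 4 exons in its main transcript of 5730 nt, and 96.5% of that transcript lay in 3 regions. Exon 1, with the 5′UTR and 773 nt of coding sequence, lay in the region chr11:60537431-60539430. The 81 nt of exon 2 lay in chr11:60547461-60548000, a region of 540 bp that otherwise lay off the exons of Alkbh5. Exons 3 and 4, with the end of the coding sequence and most of the 3′UTR, lay in chr11:60553501-60558310. Rbm15 (chr3:107325421-107333673, minus strand) has 2 exons and 4343 nt, of which 94.0% lay in 2 regions. Exon 1, which holds 2866 nt of coding sequence, lay in chr3:107329561-107334310, and 624 nt of exon 2, with the stop codon and the 3′UTR, lay in chr3:107325681-107326420. In single libraries, peaks covered 3600 to 4690 of the 4750 bp of this exon 1 region. In the exon 2 region they covered 250 to 650 of 740 bp. Rbm15b (chr9:106880918-106887428, minus strand) is a single-exon gene of 6511 nt, all of which lay in chr9:106880871-106888870. That region also touched exons of Dcaf1 and of Manf, and it had 2 partial copies elsewhere in the genome, the longer of 513 bp on chromosome 19 at 95.5% identity, so a part of its reads is uncertain.

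GGAC is the core of the sequence in which METTL3 methylates adenosine, most often followed by T. Searched as these 4 letters on the transcribed strand of the 3 mRNAs, inside the regions, GGAC occurred 83 times, and 17 of these were GGACT, which are counted among the 83. Alkbh5 held 24, of which 4 were in the 5′UTR, 8 in the coding sequence and 12 in the 3′UTR. Rbm15 held 27, of which 24 were coding, and Rbm15b held 32, of which 25 were coding. The 5 GGAC that lay within 200 nt of a stop codon are shown because m6A is known to concentrate there, and the 4 coding GGACT of the exon 1 regions of Alkbh5 and Rbm15 because those regions had the highest IP/input folds. Each is given with 10 nt before and 11 nt after it, read from the mm10 genome on the strand of the gene, with GGAC in capitals.
Alkbh5, coding, chr11:60538601-60538625: aataccaggaGGACtcggaccccga
Alkbh5, coding, chr11:60538910-60538934: acgagatcccGGACtgggtgcatca
Alkbh5, coding, 157 nt before the end of the stop codon, chr11:60554246-60554270: tcctggaaatGGACaaagaagaaaa
Alkbh5, 3′UTR, 20 nt after the stop codon, chr11:60554423-60554447: tgccctcttgGGACtctggctaatc
Rbm15, coding, chr3:107332881-107332905: gtggcggtgaGGACtccagttctcg
Rbm15, coding, chr3:107331180-107331204: gaggtgatcgGGACttgcccagcag
Rbm15, 3′UTR, 27 nt after the stop codon, chr3:107326243-107326267: aagctctaatGGACctttttgaaga
Rbm15b, coding, 59 nt before the end of the stop codon, chr9:106884351-106884375: tcagcgctgcGGACattgggcaagt
Rbm15b, coding, 10 nt before the end of the stop codon, chr9:106884302-106884326: ttatagtaagGGACaccgcctagcc

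The Rbm15 site in the 3′UTR was the only GGAC of the exon 2 region, and the 200 bp window that the peak caller scored best held it in 3 of 4 libraries. None of the other printed sites lay in a best-scored window of its region in any library. Of all 5989 regions called in every library that had exons on a single strand, 93.5% held a GGAC on that strand, at a median of 4.07 per kb of region, introns included. Measured the same way, the exon 1 regions of Alkbh5 and Rbm15 held 6.50 and 7.16 per kb, the Alkbh5 region of exons 3 and 4 held 3.12 and the Rbm15 exon 2 region 1.35. A match to these letters is a description of the sequence and not a mapped m6A site.

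**Figure D2:**
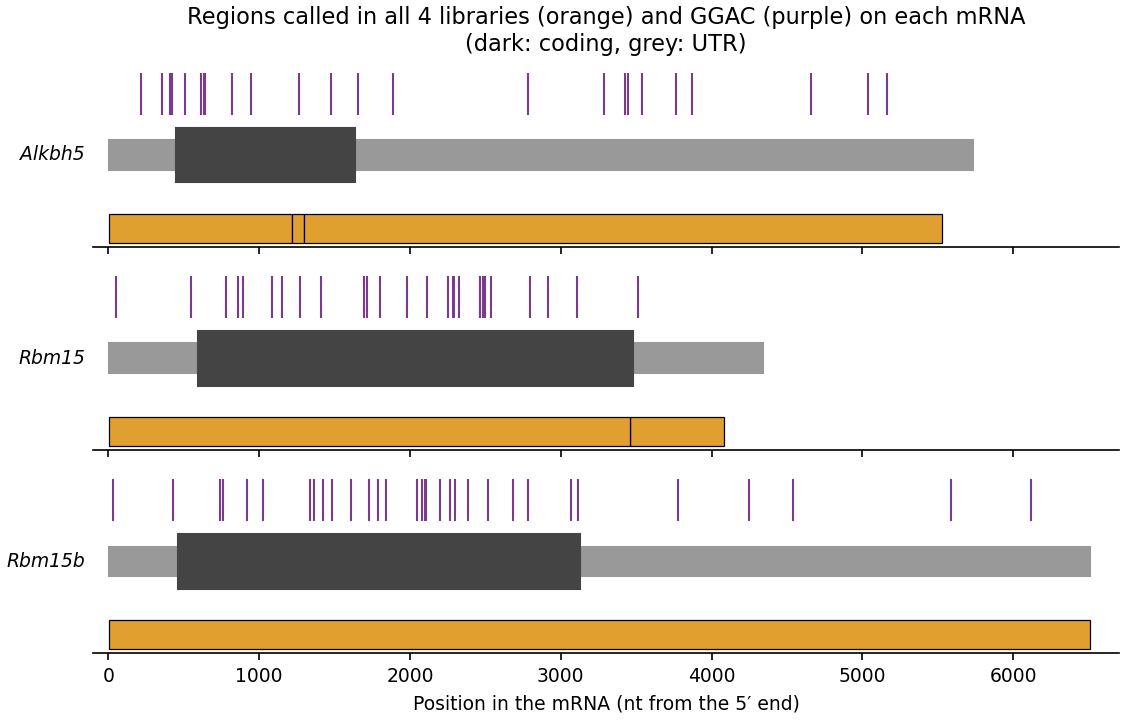
Maps of the Alkbh5, Rbm15 and Rbm15b mRNAs to scale (horizontal axis, nt from the 5′ end), with coding sequence in dark and UTRs in grey, the regions called in all 4 libraries as orange boxes and each GGAC inside them as a purple line. The regions, joined over the libraries, covered 96.5% of Alkbh5, 94.0% of Rbm15 and all of Rbm15b, and single libraries could cover less. GGAC was densest over coding sequence in Rbm15 and Rbm15b.

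Read numbers were compared between regions per length, as RPKM, here reads per kb of covered sequence scaled to the library's reads in the 6531 regions, with TMM factors to normalize between libraries. Alkbh5 exon 1 gave the highest IP signal of the member regions, with IP RPKM of 492 and 418 in normal replicates 1 and 2 and 447 and 467 in starved replicates 1 and 2. All 4 values lay above those of every other member region, and their mean, 456, exceeded that of 97.4% of all regions called in all 4 libraries. The Alkbh5 region of exons 3 and 4 followed with IP RPKM of 237, 278, 250 and 268 in the same order of libraries. Rbm15b had IP RPKM of 246, 253, 240 and 230, which overlapped the values of Alkbh5 exons 3 and 4. The order of these neighbours was thus not separated by the spread between libraries. Rbm15 exon 1 had IP RPKM of 191, 146, 147 and 147, and the Alkbh5 exon 2 region had 150, 145, 147 and 137, again with overlap. Only 81 of the 540 bp of the Alkbh5 exon 2 region were exon, so its RPKM and its fold describe a mostly intronic stretch. The Alkbh5 exon 1 region held 1218 bp of GENCODE exon in 2000 bp, so its values are not of exon alone. The repeat downstream of Alkbh5 lay at 80.2 to 109, the Dcaf1 exons at 30.8 to 46.3, and Rbm15 exon 2 at 23.0 to 38.8, which overlapped the Dcaf1 exons. The median of the 8 member regions was an IP RPKM of 151, against 49.1 over all 6531 regions.

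The input, which is the level of the RNA before immunoprecipitation, had the same order but for Rbm15 exon 1 and Alkbh5 exon 2, which changed places. Alkbh5 exon 1 gave input RPKM of 359 and 264 in normal and 414 and 263 in starved libraries. Replicate 1 was the higher in both conditions, and the conditions overlapped. Alkbh5 exons 3 and 4 lay at input RPKM of 250 to 276, Rbm15b at 156 to 209, Alkbh5 exon 2 at 104 to 163, Rbm15 exon 1 at 96.6 to 140 and Rbm15 exon 2 at 23.2 to 41.1. The median input of the 8 member regions was an RPKM of 124 against 50.6 over all regions. These were bulk samples, so that fewer cells carrying an mRNA and less of it per cell cannot be told apart.

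**Figure D3:**
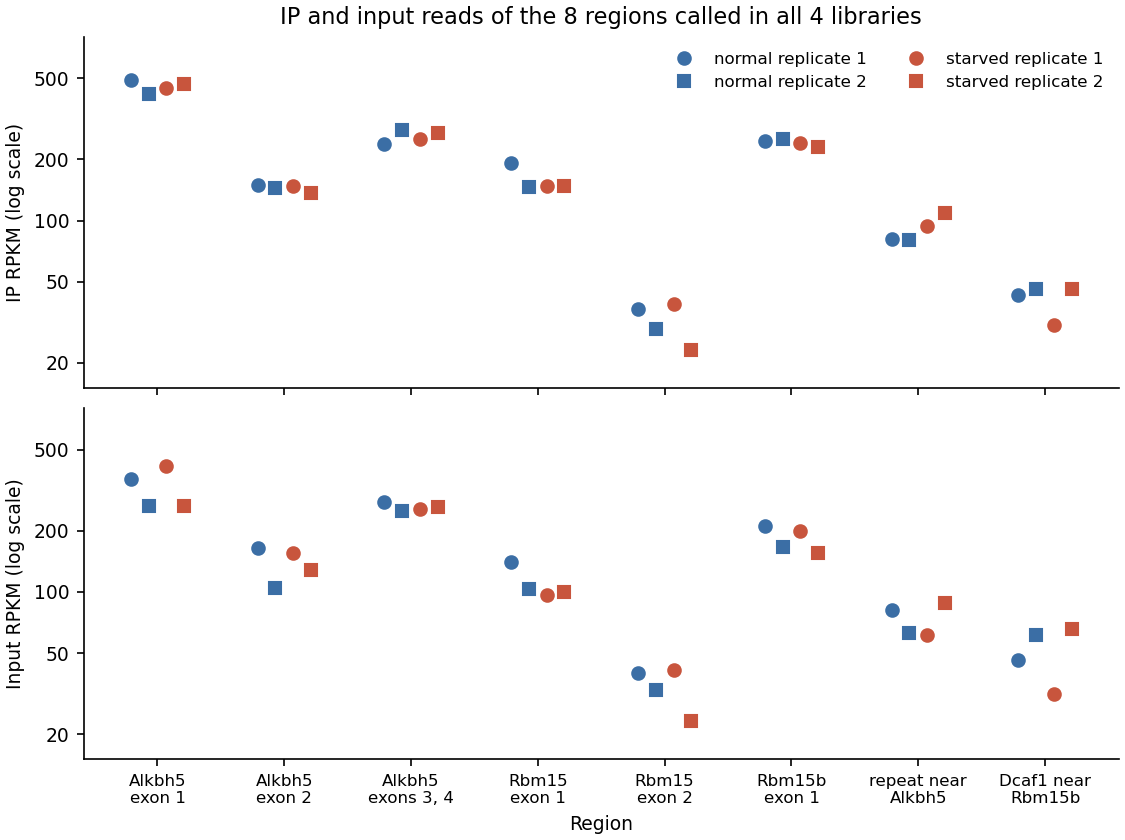
RPKM of IP reads (upper panel) and of input reads (lower panel), both on a log axis, for the 8 regions called in all 4 libraries, with 1 point per library, blue for normal and red for starved, circles for replicate 1 and squares for replicate 2. Alkbh5 exon 1 was highest in IP reads, Rbm15 exon 2 and the Dcaf1 exons overlapped at the bottom, and the points of normal and starved libraries lay close together.

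Division of IP by input gives the enrichment by YTHDF3, here the fold of the authors' scaled IP value over the scaled input value of the whole region. A fold of at least 2 was a condition for calling a peak, so that folds above 2 were set by the choice and only their size is described. Alkbh5 exon 1 had folds of 3.94 and 4.54 in normal and 2.91 and 5.55 in starved libraries, from 6170, 6736, 10791 and 11390 IP reads and 1264, 1483, 1587 and 1369 input reads. Its starved replicates were the lowest and the highest of the 4, on either side of both normal values. Alkbh5 exon 2 had folds of 2.63 and 3.98 in normal and 2.57 and 3.34 in starved libraries, from 519, 657, 955 and 891 IP reads and 159, 165, 159 and 178 input reads. Here replicate 2 was the higher in both conditions, and normal and starved overlapped. Alkbh5 exons 3 and 4 had folds of 2.46 and 3.20 in normal and 2.65 and 3.21 in starved libraries, from 6777, 11393, 14387 and 15577 IP reads and 2218, 3556, 2330 and 3236 input reads. The replicates again differed more than the conditions.

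Rbm15 exon 1 had folds of 3.91 and 4.06 in normal and 4.11 and 4.59 in starved libraries, from 4582, 5890, 7200 and 7406 IP reads and 944, 1452, 750 and 1076 input reads. Both starved values lay above both normal values, though the nearest values of the conditions lay closer to each other than the starved replicates did. With the peak of highest fold in place of the region, normal replicate 2 had 5.30, above both starved values, and the mean log2 change from normal to starved turned from 0.12 to -0.068. Rbm15 exon 2 was the shallowest region, with 78, 164, 119 and 79 IP reads and 24, 64, 20 and 17 input reads, which gave folds of 2.62 and 2.56 in normal and 2.55 and 3.10 in starved libraries. Starved replicate 1 was the lowest and starved replicate 2 the highest of these 4 folds. Rbm15b, the paralog of Rbm15, had folds of 3.37 and 4.37 in normal and 3.26 and 4.61 in starved libraries, from 12802, 17059, 23165 and 22387 IP reads and 3065, 3907, 3047 and 3237 input reads. Replicate 2 was the higher in both conditions, and the conditions overlapped. Over all 6531 regions the median fold was 2.97, 2.96, 2.82 and 3.16 in normal replicates 1 and 2 and starved replicates 1 and 2.

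Of the 2 regions that lay off the named gene, the repeat downstream of Alkbh5 had folds of 2.87 and 3.69 in normal and 4.14 and 3.86 in starved libraries, and both starved values lay above both normal ones. The Dcaf1 exons near Rbm15b had folds of 2.67 and 2.16 in normal and 2.63 and 2.18 in starved libraries, the lowest mean of the 8, and both replicate 2 values lay below every value of the exonic regions. Folds of all regions did not overlap between conditions, with both starved values higher, in 15.4% of cases, and with both lower in 13.1%, against 2 and 0 of the 8 member regions. The median of the mean folds of the 8 regions was 3.38, and that of all regions 3.07. Alkbh5 exon 1, Rbm15 exon 1 and Rbm15b had mean folds of 4.23, 4.17 and 3.90, above 87.0%, 86.0% and 81.3% of all regions. Alkbh5 exons 3 and 4 stood at 2.88, above 38.7%, and Rbm15 exon 2 at 2.71, above 26.4%.

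**Figure D4:**
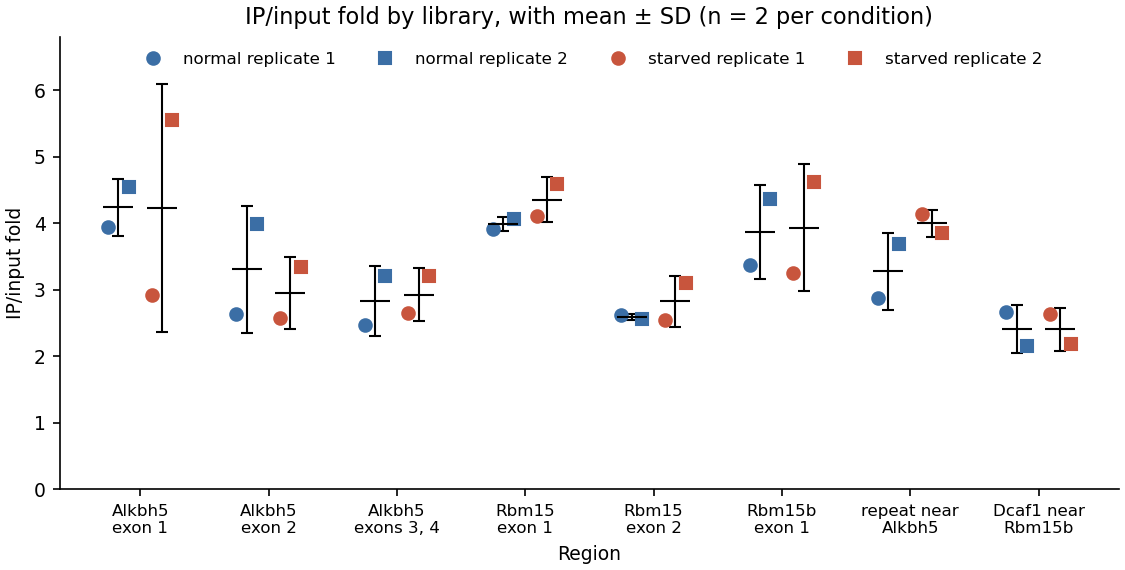
IP/input fold (vertical axis, from 0) of the 8 regions (horizontal axis), with 1 point per library, blue for normal and red for starved, circles for replicate 1 and squares for replicate 2, and a bar with its whiskers for the mean ± SD of each condition (n = 2). Folds ranged from 2.16 to 5.55, and the points of normal and starved did not overlap in 2 of the 8 regions, Rbm15 exon 1 and the repeat downstream of Alkbh5.

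Folds were compared along each mRNA, within the same library. In Alkbh5, the fold of exon 1 was 1.44 times that of exons 3 and 4 on average (log2 ratio 0.53 ± 0.28, SD, n = 4) and was higher in 4 of 4 libraries. In the same way the fold of Rbm15 exon 1 was 1.54 times that of its exon 2 (log2 ratio 0.62 ± 0.061, SD, n = 4), higher in 4 of 4 libraries. Alkbh5 exon 1 also exceeded exon 2 in 4 of 4 libraries, by 1.34 times (log2 ratio 0.42 ± 0.28, SD, n = 4), while exon 2 exceeded exons 3 and 4 in 3 of 4, by 1.08 times. The exon 2 region was mostly intron, so comparisons with it are not of exon with exon. The Alkbh5 exon 1 region also held sequence off the GENCODE exon. An exact two-sided sign-flip permutation test over the 4 libraries gave p = 0.125 for each of the 3 pairs with exon 1, the smallest p that 4 libraries allow, and 0.25 for the last. Adjusted by Benjamini-Hochberg over the 4 pairs compared, these exact p were 0.167 for the 3 pairs with exon 1 and 0.25 for the last. With 4 libraries no pair could have come under 0.05, so the test cannot decide whether the folds differ. The pairs were chosen after the folds had been seen. GGAC per kb of region was higher in the exon 1 region of either gene than in its other regions, with 3.70 in that of Alkbh5 exon 2. Per kb of transcript it was 12.3 in Alkbh5 exon 2, from 1 GGAC in 81 nt, against 8.21 in exon 1. The part of GGAC in the folds was not tested.

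Of the 27 member regions, the 8 called in every library were tested, and none was called more or less enriched after starvation. A region with a peak in only 1 condition was left out before the test, so gain or loss of a peak was not tested. The ratio of IP to input was tested with edgeR's quasi-likelihood test across all 6531 regions with Benjamini-Hochberg adjustment. It called 1 region higher, 0.0153% of those tested, and 0% lower, while 82 regions were higher and 101 lower at an unadjusted p under 0.05. DESeq2 also called 1. No member region was among them under edgeR or DESeq2, none had an unadjusted p under 0.05, and the adjusted p was 0.999 for all 8. The log2 change of the ratio was -0.10 ± 0.21 (SE) in Alkbh5 exon 1, with a 95% interval from -0.54 to 0.33. In Alkbh5 exon 2 it was -0.18 ± 0.24, interval -0.68 to 0.33, and in exons 3 and 4 it was 0.022 ± 0.18, interval -0.35 to 0.39. In Rbm15 exon 1 it was 0.094 ± 0.17, interval -0.27 to 0.46, and in Rbm15 exon 2, with the fewest reads, 0.094 ± 0.35, interval -0.65 to 0.84. In Rbm15b it was -0.015 ± 0.18, interval -0.39 to 0.36. In linear terms the interval ran from 0.764-fold to 1.28-fold in the deeply covered Rbm15b and from 0.639-fold to 1.78-fold in Rbm15 exon 2. The repeat downstream of Alkbh5 had the largest estimate, 0.25 ± 0.25, interval -0.28 to 0.77, which ranged from 0.11 to 0.42 without 1 library, and the Dcaf1 exons had -0.042 ± 0.28. The median log2 change of the 8 regions was 0.0032, and that of all regions -0.015.

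By the count that uses no test, a region is counted where starved and normal folds differ by 1.8 times or more with the same sign in replicate 1 and in replicate 2. This held for 17 regions higher in starved MEFs, 0.26%, and 22 lower, 0.337%, of 6531, and for 0 of the 8 member regions. The split over all regions depended on the setting, with 25 higher and 4 lower where the input value of a region was raised to at least 10, 228 higher and 116 lower in replicate 2 alone and 156 higher and 306 lower in replicate 1 alone. The largest log2 change of a member region in either replicate was 0.53, in the repeat downstream of Alkbh5 in replicate 1, against 0.064 in replicate 2. Alkbh5 exon 1 fell by 0.43 on the log2 scale in replicate 1 and was 0.29 higher in replicate 2. In all, 3 member regions were higher in both replicates, 1 was lower in both and 4 moved in opposite directions, and of all regions 46.6% moved in opposite directions.

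**Figure D5:**
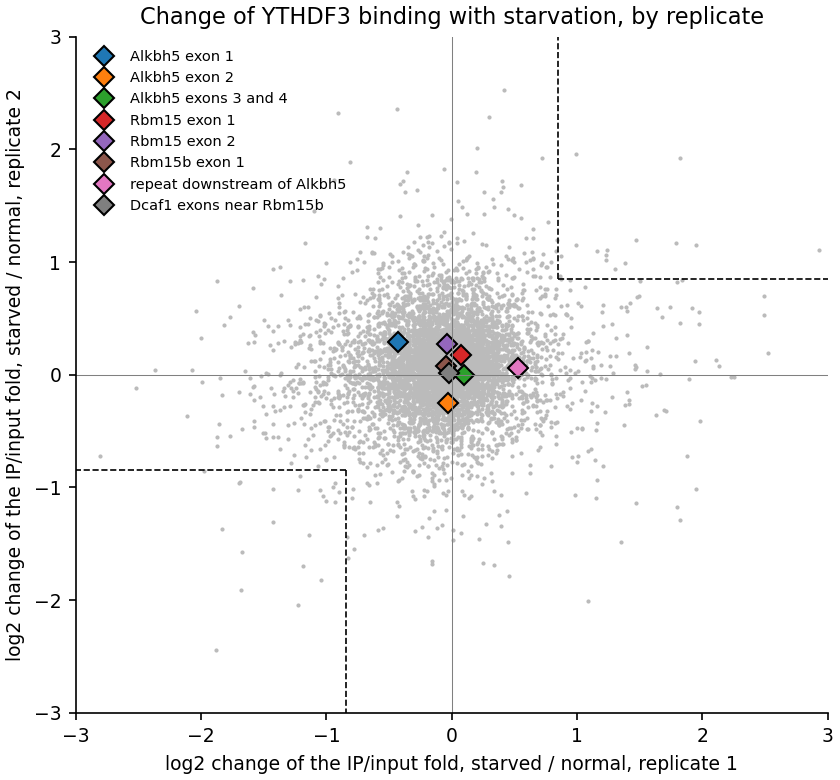
Log2 change of the IP/input fold from normal to starved in replicate 1 (horizontal axis) and replicate 2 (vertical axis) for all 6531 regions (grey points, with 1 beyond the axes) and the 8 member regions (coloured diamonds), with dashed lines at a 1.8-fold change in both replicates. No member region lay inside the dashed corners, and the changes of Alkbh5 exon 1 had opposite signs in the replicates.

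The amount of RNA brought down and the amount present were tested in the same manner, each with the covered length of a region taken into account. For IP reads, edgeR called 6 regions higher, 0.0919%, and 49 lower, 0.75%, and none was a member. Member regions had log2 changes of IP reads from -0.22 in the Dcaf1 exons to 0.33 in the repeat downstream of Alkbh5, with edgeR adjusted p from 0.689 to 0.996. In that repeat both starved libraries lay above both normal ones per length, and in Rbm15b both lay below, as did 12% and 27.4% of all regions. In the 6 exonic regions the changes were -0.20 to 0.0074, and the median over all regions was -0.095. For input reads, edgeR called 15 regions higher, 0.23%, and 65 lower, 0.995%, and none was a member either. Input changes in the 6 exonic regions ran from -0.31 ± 0.27 (SE) in Rbm15 exon 1, edgeR adjusted p = 0.893, where it was -0.51 to -0.076 without 1 library, to 0.12 ± 0.29 in Alkbh5 exon 1, edgeR adjusted p = 0.978. Without the length term, Rbm15 exon 2, covered over 250 to 650 bp in the 4 libraries, changed by -0.93 for IP reads and -1.04 for input reads and was not called. Both starved inputs lay below both normal ones per length in Rbm15 exon 1, as in 24.5% of all regions. DESeq2 called 180 regions for IP reads, 67 higher and 113 lower, and 125 for input reads, 42 higher and 83 lower, a less one-sided split than that of edgeR, and 0 members in either. No member region had an unadjusted edgeR p under 0.05, the lowest being 0.162 for IP reads and 0.278 for input reads.

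The peaks of the other members were shallow and rarely shared. Fto had 6 regions, all on its own exons, but each was called in 1 library alone, 2 in starved replicate 1, 2 in starved replicate 2 and 1 in each normal library. The deepest, chr8:91313411-91313820, at the 5′ end of the gene with 45 nt of coding sequence, held 250 IP and 41 input reads in starved replicate 1, a fold of 2.61. The other 5 Fto regions held 38 to 166 IP reads. Mettl3 had 1 region, chr14:52296671-52296870, on a coding exon, with 17 IP reads and no input read in starved replicate 1. Cbll1 had 1 region, chr12:31499321-31499530, mostly intronic, with 34 IP and 2 input reads in the same library. No fold is given for regions with 3 or fewer input reads. Of the regions named Mettl14, on Sec24d, the deeper, chr3:123343611-123343840, held 94 IP and 28 input reads in starved replicate 2.

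Rbm15 had 3 further regions and Rbm15b 4, each in a single library, with those of Rbm15b all on Dcaf1, and Alkbh5 had 2 called in 2 libraries, of which 1 had 48 copies elsewhere in the genome. Of the 17 regions of single libraries, 13 or 76.5% were in a starved library, and over the series 59.7% of such regions were. They held 17 to 250 IP reads, with a median of 63, and 5 had at most 3 input reads. The starved IP libraries were also the deeper ones, as given above, and the part of depth in these calls was not tested.

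The longest exon of the 3 genes with regions in all libraries was 4275 to 6511 nt, and that of the other 6 genes 1191 to 6590 nt, longest in Mettl14, so the groups overlapped. The longest coding stretch in 1 exon was 2866 nt in Rbm15, 2661 nt in Rbm15b and 773 nt in Alkbh5. Among the other members it was 1191 nt in Zc3h13 and 1033 nt in Cbll1, 619 nt in Fto, 581 nt in Wtap, 405 nt in Mettl3 and 302 nt in Mettl14, again with overlap. Of 21924 protein-coding genes in the annotation, a region in all 4 libraries was named for 7.97% of those with a stretch under 500 nt, 11.5% of those from 500 to under 1000 nt and 23.6% of those of 1000 nt or more. GGAC per kb of transcript did not separate the groups, with 4.54 to 6.22 in the 3 genes and 3.65 to 6.91 in the other 6, highest in Mettl3.

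Other genes of the m6A pathway were taken from a list of 20 names of further writers, readers and cofactors. Of the 20 names, 3 are names of 1 gene, Virma. Counted by name, 7 had a peak and 3 had a region in all 4 libraries, 6 regions in all. These were the reader Ythdf2 with 3 regions, Pcif1, which methylates the adenosine next to the cap, with 2, and Mat2a, which makes the methyl donor S-adenosylmethionine, with 1, and they are named here because they were so few. Ythdf3, the mRNA of the precipitated protein itself, had 6 regions, of which 0 were called in all 4 libraries. None of the 6 regions in all 4 libraries was called by edgeR for the ratio, IP reads or input reads. Their log2 changes of the ratio ran from -0.20 to 0.12 in Ythdf2 and from -0.46 to 0.86 in Pcif1, and the Mat2a region had 0.43.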

How the data were processed

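YTHDF3 RIP-seq of MEFs comprised 4 IP libraries and 4 inputs, 2 normal and 2 starved of each. Per the methods and the submitters' processing notes, TopHat2 2.0.13 aligned trimmed reads to mm10, diffReps found the peaks in which IP exceeded input, and HOMER named each by its nearest gene start. The values that the authors deposited are a signal, the reads of a peak times a factor for each column, and for normal replicate 2 that factor is 1, so that its deposited values are counts. They also deposited a log2 ratio of IP to input and p-values for each peak. The lists do not name their input, and the input of the same condition and replicate number was taken. Whether counting used strand is not given in the sources used here.

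Division by the factor, 0.655 to 1.53, gave whole reads for 100% of values, within a tolerance of 0.005 plus 1e-05 for each read. Peaks needed a fold of 2 or more and a p under 0.0001, and peaks sharing 1 bp or more formed a region. The fold of a region is its summed IP value over the larger of its summed input value and 3. Regions of all 4 lists were tested with edgeR 4.0.16 (R 4.3.3, quasi-likelihood, TMM, Benjamini-Hochberg), the ratio with a term for each IP and input pair, IP and input reads with covered length as an offset, and DESeq2 1.42.0 was an alternative. Tested on simulated data of 6531 regions with 200 changed 2.5-fold, edgeR recovered 165 for the ratio with 16 false calls, 139 for IP reads with 11 and 59 for input reads with 3. Annotation was GENCODE and genome sequence GRCm38. Copies elsewhere were found by blastn 2.17.0, with identity of at least 95% over at least 100 bp. Python 3.11.15 with pandas 2.3.3 and numpy 2.4.6 did the rest.

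All 9 genes and all their regions are accounted for, with regions of all 4 lists in full and, for genes without, the one with the most IP reads. The rule named other pathway genes where they pass a test, which none did, and those named were chosen after their values were seen. The members, lists and tests were chosen with earlier results of these data known.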

Additional observations from a re-analysis of the deposited data

How the results depend on the processing

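No member region was called for the ratio, IP reads, input reads or the 1.8-fold count under the alternatives run, which tested all 8, the 7 left with at least 20 reads or at 50% overlap, or the 6 on exons of the named gene. With a fold of at least 4, no member region was left to test. No direction of a member region was called, and 44 of 293 values of single regions under alternatives changed sign, 32 of them without 1 library or replicate, to a size of 0.0073 to 0.29. With the highest peak of a region, the mean log2 change of the fold moved from 0.12 to -0.068 in Rbm15 exon 1 and from -0.0024 to 0.15 in the Dcaf1 exons, by more than the spread between replicates. With no length offset Rbm15 exon 2 moved from -0.084 to -0.93 for IP reads and from -0.19 to -1.04 for input reads. With DESeq2's size factors in edgeR the log2 change of IP reads was -0.012 in Alkbh5 exon 1 and -0.0097 in exons 3 and 4, and with peaks matched at 50% reciprocal overlap it was -0.0098 in the latter. With DESeq2 it was 0.051 in Alkbh5 exon 2, 0.0073 in Rbm15 exon 2 and 0.015 in Rbm15b, and input reads changed by 0.078 in Alkbh5 exons 3 and 4 and 0.025 in Rbm15b. The median over all regions moved from -0.095 to 0.0055 for IP reads with DESeq2. Input reads of Alkbh5 exons 3 and 4 changed by 0.014 with at least 20 reads required in each column and by 0.036 with no length offset.

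Leaving out 1 library in turn, the ratio ranged from -0.46 to 0.27 in Alkbh5 exon 1, -0.43 to 0.11 in exon 2, -0.12 to 0.20 in exons 3 and 4, -0.16 to 0.16 in Rbm15b, -0.24 to 0.23 in the Dcaf1 exons and 0.11 to 0.42 in the repeat. IP reads ranged from -0.12 to 0.15 in Alkbh5 exon 1, -0.089 to 0.11 in exons 3 and 4, -0.39 to 0.023 in Rbm15 exon 1, -0.51 to 0.25 in Rbm15 exon 2 and -0.54 to 0.043 in the Dcaf1 exons. Input reads ranged from -0.24 to 0.44 in Alkbh5 exon 1, -0.21 to 0.44 in exon 2, -0.098 to 0.047 in exons 3 and 4, -0.51 to -0.076 in Rbm15 exon 1, -0.63 to 0.21 in exon 2, -0.26 to 0.12 in Rbm15b, -0.76 to 0.28 in the Dcaf1 exons and -0.18 to 0.31 in the repeat. The log2 ratios of folds between regions of one mRNA kept their sign without any one library and with the highest peak in place of the region, alternatives chosen after seeing the data.

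Counts over all regions moved more, and the cause was not tested. For IP reads, 55 calls became 180 with DESeq2, 0 with no length offset, 0 at a fold of at least 4 (fewer regions tested) and 102 to 224 without 1 library. For input reads, 80 became 125, 0, 2 and 63 to 175 in the same order. For the ratio, 1 became 0 with at least 20 reads, 0 at 50% overlap, 0 at a fold of at least 4 and 1 to 3 without 1 library. The 39 regions of the 1.8-fold count, 17 higher and 22 lower, became 29 with input values raised to at least 10, 25 higher and 4 lower, 149 at 1.5-fold, 24 at 2-fold, 1 with at least 20 reads, 13 at 50% overlap, 12 at a fold of at least 4, and 344 to 462 with a single replicate.

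With the replicate number as a block, IP calls over all regions became 275 and input calls 294, with 0 members in either and 1 call for the ratio. The samples share only a number, and differences between replicates correlated between conditions with r = 0.30 for the ratio, 0.45 for IP reads and 0.30 for input reads across regions. With 17 to 64 input reads, Rbm15 exon 2 is the region where depth limits the comparison most.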

Other observations

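The peaks on Alkbh5 reached upstream of exon 1 of its main transcript, within the bounds of the annotated gene. In all 4 libraries the 200 bp window that the peak caller scored best in the exon 1 region ended roughly 200 bp upstream of exon 1 of the main GENCODE transcript. RefSeq starts that exon further upstream, at chr11:60537683, and at least 77 bp of each best window lay inside the RefSeq exon. A smaller region further upstream, chr11:60537121-60537410, held 20 IP reads and no input read in normal replicate 1 and the same numbers in starved replicate 1, and was not called in either replicate 2. These windows were picked out after their positions had been seen, and whether they reflect transcripts that start earlier was not tested.

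In the 200 bp windows scored best over all peaks of the regions called in all 4 libraries, GGAC was present on the transcribed strand in 59.1% of 29766 windows with exons on 1 strand. In the member regions it was present in 11 of 25 such windows, 44.0%. Windows of the same region in different libraries overlap, so these 25 are not independent, and no test was made.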
